A study of Mus musculus with 6 samples.

Results

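The acute phase genes described here are the serum amyloid A genes Saa1, Saa2, Saa3 and Saa4, the lipocalin gene Lcn2, the orosomucoid genes Orm1, Orm2 and Orm3, the haptoglobin gene Hp and the serum amyloid P gene Apcs. They were chosen by symbol: every probe set that the platform annotation maps to exactly 1 of the 10 symbols was taken. This gave 12 of the 45037 probe sets in the table, with Saa1 and Saa4 each read by 2 of them and the other 8 genes by 1, and 10 of 18193 genes. Livers of C57BL/6 mice were measured on 6 arrays, 1 per liver sample. The 3 AAV8-Nfkbiz mice had received, intravenously, an AAV8 vector that expresses Nfkbiz, the gene of the nuclear IκB protein IκBζ, and the 3 AAV8-luciferase mice the same type of vector with luciferase. Both groups stayed 4 weeks on vector alone and then 4 weeks on CDAHFD, a choline-deficient high-fat diet that models nonalcoholic fatty liver disease, so no array shows a liver without vector or diet. Livers were flushed free of blood with buffer before RNA was taken, and 100 ng of total RNA was labelled. The labels give no age, no sex and no promoter for the transgene, and do not say more of the replicates than that they are separate samples. The p-values therefore measure the spread between these samples.

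The acute phase response is the change in plasma proteins that the liver makes during inflammation. Interleukin-6 and its relatives act on hepatocytes through gp130, JAK kinases and STAT3, and interleukin-1 and tumour necrosis factor act through NF-κB, while C/EBPβ and C/EBPδ are transcription factors that many acute phase genes share. IκBζ is an inducible partner of NF-κB in the nucleus, and Lcn2 is among the genes reported to need it in other cell types. The Saa genes lie side by side on mouse chromosome 7 in the order Saa3, Saa4, Saa1 and Saa2, and the Orm genes on chromosome 4 in the order Orm1, Orm3 and Orm2.

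The promoters of the genes are shown because C/EBP motifs were found in most of them, and because the near identity of Saa1 and Saa2 bears on what their probe sets can separate. RefSeq promoter windows of 300 bases (GRCm38.p6, from 250 bases before the transcript start to 50 after it) were found for 8 of the 10 members. The 250 upstream bases are printed below 5′ to 3′ on the gene's strand for 4 of them, with the C/EBP match in capitals.
Saa1, chr7:46742981-46743230, minus strand: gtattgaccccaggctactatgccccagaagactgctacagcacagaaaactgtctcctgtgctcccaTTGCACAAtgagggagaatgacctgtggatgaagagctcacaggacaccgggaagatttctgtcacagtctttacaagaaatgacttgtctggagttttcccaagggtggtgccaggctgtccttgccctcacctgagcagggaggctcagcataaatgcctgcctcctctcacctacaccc
Saa2, chr7:46751583-46751832, plus strand: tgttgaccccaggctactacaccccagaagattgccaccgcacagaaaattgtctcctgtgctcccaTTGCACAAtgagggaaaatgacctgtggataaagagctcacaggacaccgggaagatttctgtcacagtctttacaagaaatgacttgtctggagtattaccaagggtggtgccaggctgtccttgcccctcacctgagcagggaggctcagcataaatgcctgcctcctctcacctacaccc
Saa3, chr7:46715677-46715926, minus strand: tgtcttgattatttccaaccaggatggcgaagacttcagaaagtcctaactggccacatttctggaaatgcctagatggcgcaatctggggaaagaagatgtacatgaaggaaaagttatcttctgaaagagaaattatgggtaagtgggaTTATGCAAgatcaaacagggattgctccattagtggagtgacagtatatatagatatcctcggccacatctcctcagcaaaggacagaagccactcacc
Lcn2, chr2:32387740-32387989, minus strand: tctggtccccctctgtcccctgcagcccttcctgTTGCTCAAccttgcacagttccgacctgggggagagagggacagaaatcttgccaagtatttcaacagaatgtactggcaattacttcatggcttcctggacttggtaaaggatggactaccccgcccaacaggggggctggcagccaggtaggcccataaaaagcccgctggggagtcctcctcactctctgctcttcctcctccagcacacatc

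The C/EBP motif TTGCNNAA, searched on both strands, was found in 7 of the 8 windows, whereas 10.8% of all 32851 promoter windows held it. Saa1 and Saa2 carried the same letters, TTGCACAA, starting 182 bases upstream in Saa1 and 183 bases upstream in Saa2. In Saa3 the match lies on the opposite strand, 99 bases upstream. Orm3 held TTGCACAA 121 bases upstream and Orm2 held TTGCGCAA 120 bases upstream. Saa4, the member known as constitutive, had 2 matches, TTGCCAAA and TTGAGCAA. The STAT motif TTCNNNGAA, searched on both strands, matched only the Apcs window, once, as TTCTAGGAA, and 8.3% of all windows held it. The NF-κB consensus of 10 letters, searched on both strands, matched none of the 8 windows and 4.51% of all windows, which says only that these letters are not in these windows. No match overlapped another motif of the 3. Aligned over the whole windows, Saa1 and Saa2 were 95.3% identical and Orm2 and Orm3 86.6%, while Saa1 was 54.2% identical to Saa3 and 50.7% to Saa4.

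The vector itself was visible on 1 of the 3 Nfkbiz probe sets, 1448728_a_at, which read 4424, 4073 and 2006 in AAV8-Nfkbiz livers and 221, 230 and 180 in AAV8-luciferase livers. It rose 15.8-fold (limma adjusted p = 0.000901). The other 2 did not pass, with 0.30 ± 0.19 for 1417483_at and -0.89 ± 0.54 for 1457404_at (limma adjusted p = 0.603 and 0.594). Hepatocyte markers were present throughout, with 9 of 9 measured ones above the intensity filter described next and a geometric mean of 17803 to 20128 on the AAV8-Nfkbiz arrays and 18990 to 25949 on the AAV8-luciferase arrays. A dim Ass1 probe set enters these geometric means, at 115, 178 and 135 in AAV8-Nfkbiz livers, against 584, 608 and 60.5 in AAV8-luciferase livers. Summed over the markers, the intensity was 284820 to 331020 in the AAV8-Nfkbiz group and 291460 to 342430 in the luciferase group. Their median log2 difference was 0.017. Of the 9 markers 4 had a lower mean in AAV8-Nfkbiz livers on the log2 scale. Tat, tyrosine aminotransferase, was the 1 that passed limma's test, lower by 1.17 ± 0.15 (SE, limma adjusted p = 0.0289).

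The unit throughout is the MAS5 intensity on a linear scale, which the authors brought to a common level per array. A difference is the mean log2 intensity of the AAV8-Nfkbiz group minus that of the AAV8-luciferase group, from a limma fit over the 27022 probe sets outside the lowest 40% by mean intensity, and a call is an adjusted p below 0.05 over all of them. All 12 acute phase probe sets passed that filter, which uses the mean over all 6 arrays. None of the 12 passed limma's test, with adjusted p-values from 0.319 to 0.987, where 0.0703% of all probe sets tested passed, 0.0185% higher and 0.0518% lower. At an unadjusted p below 0.05 there was 1, Apcs, where 10.6% of all probe sets reached that level and 4.14% did so with a higher intensity. The differences were positive for 8 of the 12 probe sets, where 47% of all probe sets had a positive difference. Their median was 0.28, against -0.02 over all probe sets tested. The values over all probe sets pool dim and bright ones, and none was computed at the brightness of the members. A positive difference was not particular to the members: 14 of 16 tested genes that fall in the acute phase had one, and 5 of 9 hepatocyte markers. The 12 member probe sets are not independent of each other, since Saa1 and Saa4 each enter with 2 probe sets and the probe sets of Saa1 and Saa2 read very similar transcripts. In whole liver, fewer cells of a type and less RNA per cell cannot be told apart.

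**Figure D1:**
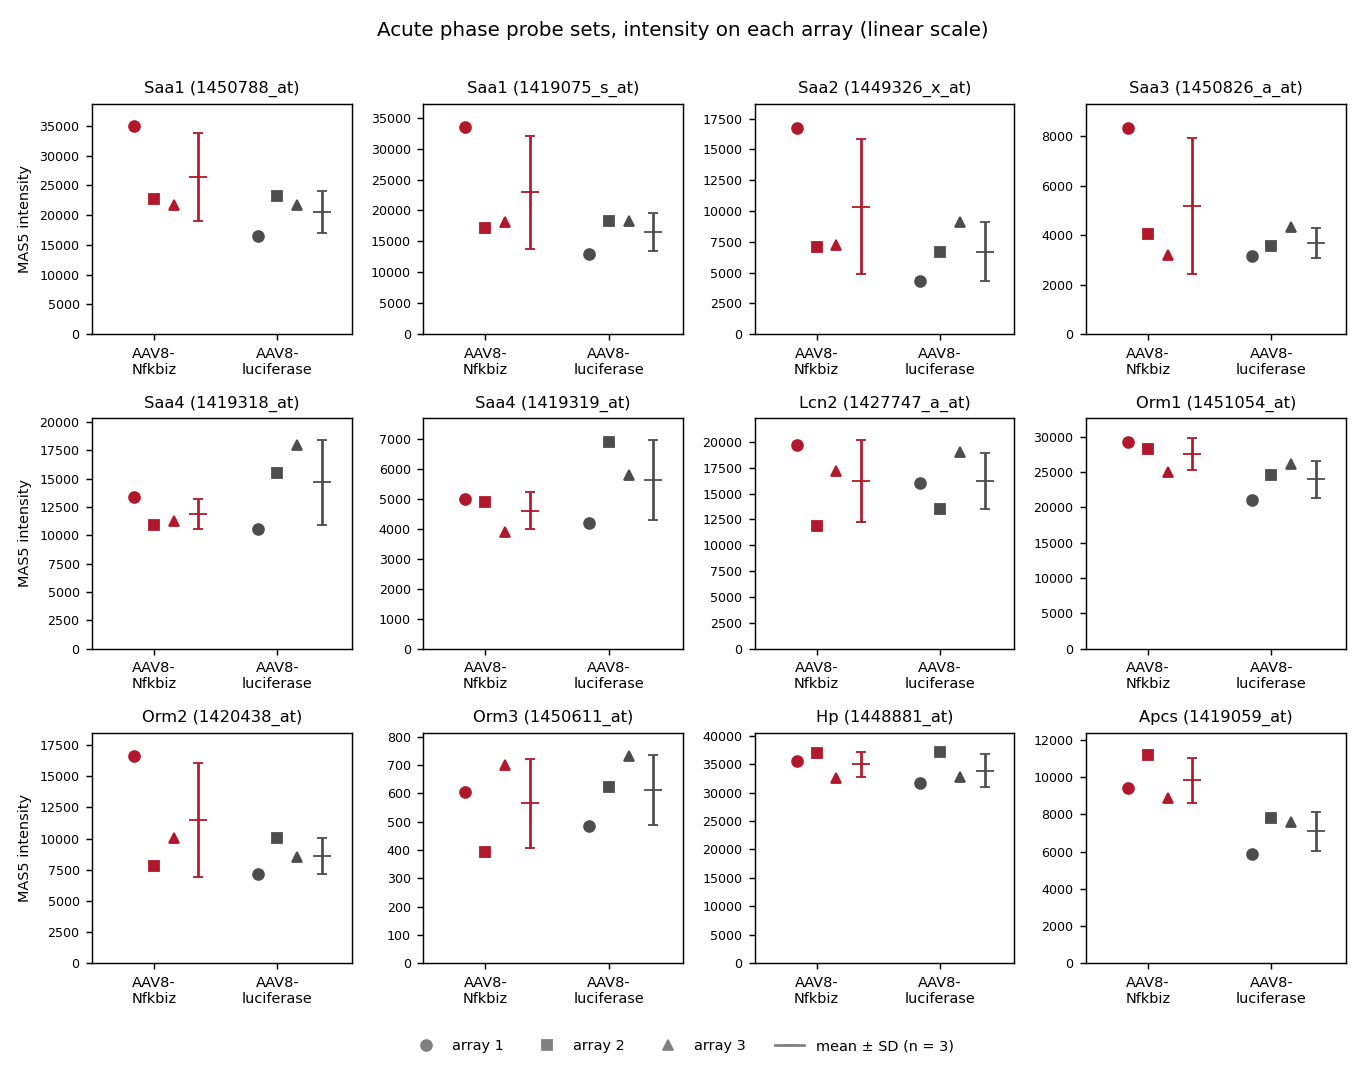
MAS5 intensity (vertical axis, linear, from 0) of the 12 acute phase probe sets on each array, AAV8-Nfkbiz at the left and AAV8-luciferase at the right of each panel, with array 1, 2 and 3 as circle, square and triangle and the mean ± SD beside them. The first AAV8-Nfkbiz array stands well above all other arrays for Saa1, Saa2, Saa3 and Orm2, and slightly above them for Lcn2 and Orm1. The groups are separate only for Apcs.

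Saa1 and Saa2 encode the inducible serum amyloid A proteins, small apolipoproteins that ride on HDL and are among the most strongly induced plasma proteins of inflammation in mice. The Saa1 probe set 1450788_at read 34922, 22649 and 21722 in AAV8-Nfkbiz livers, against 16505, 23218 and 21718 in AAV8-luciferase livers. Only the first AAV8-Nfkbiz array lay above the luciferase range, and the other 2 lay inside it. Saa1 differed by 0.35 ± 0.20 (SE, 95% interval -0.09 to 0.79, limma adjusted p = 0.563), and by 0.13 without the first AAV8-Nfkbiz array. The second Saa1 probe set, 1419075_s_at, read 33496, 17125 and 18174 in AAV8-Nfkbiz livers, against 13025, 18218 and 18329 in AAV8-luciferase livers. Its order of arrays was alike at the top, with 1 high AAV8-Nfkbiz array, and the AAV8-Nfkbiz arrays 2 and 3 lay just below the luciferase arrays 2 and 3. The difference was 0.42 ± 0.24 (95% interval -0.12 to 0.97, limma adjusted p = 0.573), and 0.11 without the first AAV8-Nfkbiz array. The annotation names this probe set Saa1, but the transcript accession it lists belongs to Saa2 in the RefSeq table, so it is uncertain which of the 2 genes it reads.

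On the log2 scale, Saa2 had the widest spread of the amyloid A genes in the luciferase group, with an SD of 0.55. Its probe set 1449326_x_at read 16699, 7093 and 7270 in AAV8-Nfkbiz livers, against 4297, 6651 and 9124 in AAV8-luciferase livers. Again 1 AAV8-Nfkbiz array stood high and the other 2 fell within the luciferase range. The difference was 0.57 ± 0.34 (95% interval -0.19 to 1.33, limma adjusted p = 0.583), which corresponds to 1.49-fold with an interval from 0.88-fold to 2.52-fold. Without the first AAV8-Nfkbiz array it was 0.17. The suffixes of 1419075_s_at and 1449326_x_at mark, in the platform's naming, probe sets whose probes can bind more than 1 transcript, so Saa1 and Saa2 are reported as not cleanly separable here.

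Saa3 encodes an amyloid A protein made by macrophages and adipocytes as well as by liver, and its human counterpart is a pseudogene. Probe set 1450826_a_at read 8335, 4036 and 3203 in AAV8-Nfkbiz livers, against 3143, 3552 and 4349 in AAV8-luciferase livers. The first AAV8-Nfkbiz array read 2.3 times the mean of the other 2 of its group, and those 2 overlapped the luciferase arrays. The difference was 0.38 ± 0.30 (95% interval -0.28 to 1.04, limma adjusted p = 0.679), and it was -0.021 without that array.

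Saa4 encodes the constitutive amyloid A of HDL, which is known to respond little to inflammation. Both of its probe sets had negative differences. Probe set 1419318_at read 13388, 10909 and 11297 in AAV8-Nfkbiz livers, against 10567, 15479 and 17964 in AAV8-luciferase livers. The first luciferase array was the lowest of all 6 and the other 2 luciferase arrays were the highest. Probe set 1419319_at read 5018, 4919 and 3908 in AAV8-Nfkbiz livers, against 4219, 6901 and 5796 in AAV8-luciferase livers. The differences were -0.28 ± 0.19 and -0.27 ± 0.19, with limma adjusted p-values of 0.633 and 0.637. Without the first luciferase array they were -0.50 and -0.46, and neither was called. The high first AAV8-Nfkbiz array of Saa1, Saa2 and Saa3 was not seen here: it was 1.21 and 1.14 times the mean of the other 2 of its group.

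Lcn2 encodes lipocalin 2, a protein that withholds iron from bacteria by binding their siderophores and that hepatocytes and neutrophils make. It read 19698, 11896 and 17163 in AAV8-Nfkbiz livers, against 16052, 13544 and 18980 in AAV8-luciferase livers. The AAV8-Nfkbiz arrays were both the highest and the lowest of the 6, and the groups overlapped fully. The difference was -0.01 ± 0.19 (95% interval -0.45 to 0.42, limma adjusted p = 0.987), so the interval runs from 0.73-fold to 1.34-fold. Its sign turned with median centring, with array weights and when the second AAV8-Nfkbiz or the third luciferase array was left out, with values from 0.021 to 0.20.

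The orosomucoids, or alpha-1-acid glycoproteins, are plasma lipocalins that bind lipophilic compounds and are induced by glucocorticoids together with interleukin-1 and interleukin-6. Orm1 read 29289, 28261 and 25047 in AAV8-Nfkbiz livers, against 21011, 24579 and 26178 in AAV8-luciferase livers. Of the AAV8-Nfkbiz arrays, 2 lay above all luciferase arrays and the third below the highest of them. Orm1 differed by 0.21 ± 0.13 (95% interval -0.08 to 0.49, limma adjusted p = 0.605). Orm2 read 16647, 7811 and 10028 in AAV8-Nfkbiz livers, against 7165, 10063 and 8510 in AAV8-luciferase livers. As for Saa1 to Saa3, the first AAV8-Nfkbiz array alone lay above the luciferase range. Orm2 differed by 0.36 ± 0.25 (95% interval -0.18 to 0.91, limma adjusted p = 0.634), and by 0.059 without that array. Orm3 read 603, 393 and 700 in AAV8-Nfkbiz livers, against 486, 623 and 732 in AAV8-luciferase livers. Its groups overlapped, with the lowest array an AAV8-Nfkbiz one, and the difference was -0.14 ± 0.24 (limma adjusted p = 0.868), or 0.10 without the second AAV8-Nfkbiz array.

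Haptoglobin, the product of Hp, binds free haemoglobin for clearance by CD163 on macrophages. Hp read 35538, 36876 and 32505 in AAV8-Nfkbiz livers, against 31639, 37071 and 32759 in AAV8-luciferase livers. The groups overlapped almost completely, and the difference was 0.05 ± 0.12 (95% interval -0.22 to 0.32, limma adjusted p = 0.91). It turned to -0.026 after quantile and -0.073 after cyclic loess normalization.

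Serum amyloid P, the product of Apcs, is a pentraxin that binds amyloid, DNA and microbial surfaces and is the main acute phase pentraxin of mice. Apcs read 9422, 11211 and 8890 in AAV8-Nfkbiz livers, against 5864, 7801 and 7585 in AAV8-luciferase livers. Every AAV8-Nfkbiz array lay above every luciferase array, as for 7.03% of all probe sets tested, while 9.69% were separate in the other direction. Of the 12, Apcs was the 1 with separate groups, where 16.7% of all probe sets were separate in either direction. The means were 9841 ± 1216 in AAV8-Nfkbiz livers and 7083 ± 1062 in AAV8-luciferase livers (SD, n = 3 each), and the difference was 0.48 ± 0.15 (95% interval 0.15 to 0.81, 1.39-fold). It did not pass (limma adjusted p = 0.319, unadjusted p = 0.00935). The difference did not hinge on the first arrays, being 0.51 without the first AAV8-Nfkbiz array, 0.35 without the first luciferase array and 0.38 without both. The exact permutation p of a 3 against 3 comparison cannot fall below 0.1. Crp, the other pentraxin made in liver and the neighbour of Apcs on chromosome 1, read 16609, 16478 and 15097 in AAV8-Nfkbiz livers, against 14573, 17337 and 16660 in AAV8-luciferase livers, and differed by -0.01 ± 0.12 (limma adjusted p = 0.985). Of the 5 other pentraxin genes in the list 2 passed the intensity filter, Crp and the neuronal pentraxin gene Nptx1 (0.18 ± 0.30, limma adjusted p = 0.861), and 0 passed the test.

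Across the members, the first array of each group stood apart. The first AAV8-Nfkbiz array was the highest of the 6 for 7 of the 12 probe sets, where it was the highest for 15.6% of all probe sets tested. The first luciferase array was the lowest for 9 of the 12, where it was the lowest for 12.7% of all probe sets tested. These shares pool dim and bright probe sets, and none was computed at the brightness of the members. A lowest value on the first luciferase array was not particular to the members. The geometric mean of the other positive acute phase genes, described below, was also lowest on that array, at 8127. So was that of the genes that fall in the acute phase, at 16795. That of the hepatocyte markers, at 22192, was not, but it includes a dim Ass1 probe set. That probe set read 584 there and 60.5 on the third luciferase array. The hepatocyte markers Ttr, Apoa1 and Fgb were lowest on the first luciferase array, while Alb, Tat and Ass1 were not. The first AAV8-Nfkbiz array read at least 1.5 times the mean of the other 2 of its group for 5 members, namely both Saa1 probe sets, Saa2, Saa3 and Orm2, where 9.9% of all probe sets reached that ratio. The ratio was 2.33 for Saa2, 2.3 for Saa3, 1.9 and 1.57 for the Saa1 probe sets and 1.87 for Orm2, and it was between 0.94 and 1.36 for Apcs, Hp, Orm1, Orm3, Saa4 and Lcn2. On the log2 scale the SD within the AAV8-Nfkbiz group was 0.70 for Saa2, 0.72 for Saa3 and 0.56 for Orm2, against a median of 0.14 over the 1973 probe sets at least as bright as the members other than Orm3. In the luciferase group the SDs of the same genes were 0.55, 0.24 and 0.25, against a median of 0.17. The median difference of the 12 probe sets was 0.05 without the first AAV8-Nfkbiz array and 0.16 without the first luciferase array. With the first array of each group left out, a comparison added after the values were seen, it was -0.09, and 10 of the 12 probe sets had a negative difference, Apcs and Orm1 being the exceptions. None of the 12 was called in any of these cases. The Nfkbiz probe set 1448728_a_at was also highest on the first AAV8-Nfkbiz array, at 4424, with 4073 on the second and 2006 on the third, and the part of vector level in the members' values was not tested.

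**Figure D2:**
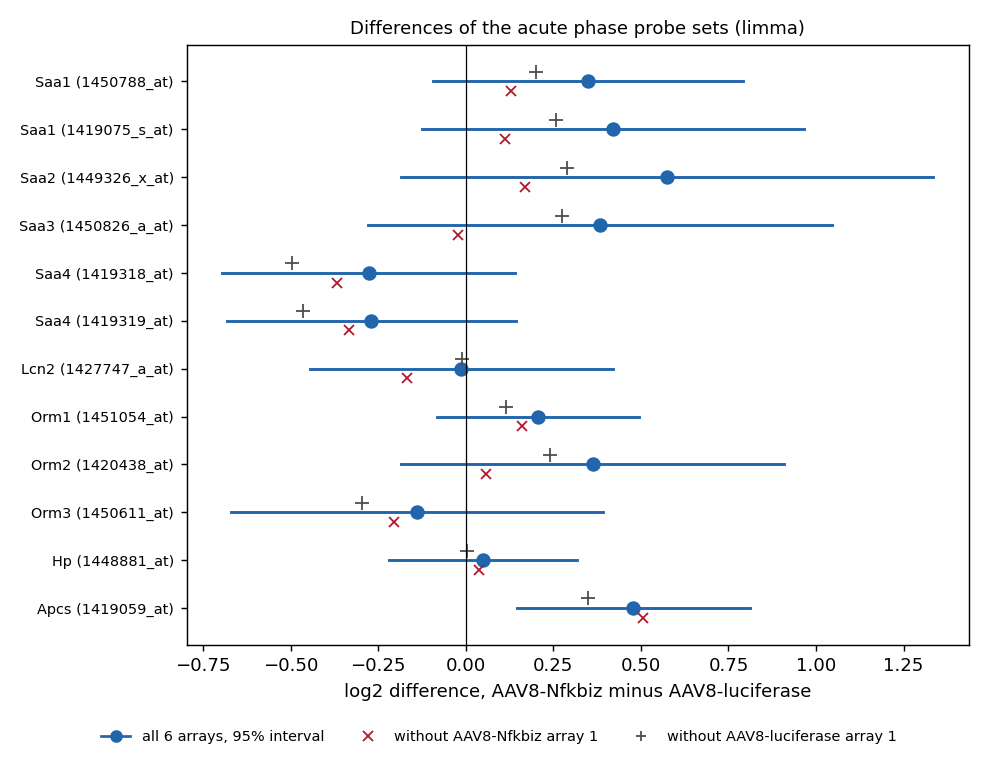
Log2 difference, AAV8-Nfkbiz minus AAV8-luciferase (horizontal axis), of the 12 probe sets, with points and lines for the limma estimate and its 95% interval over all 6 arrays, crosses for the estimate without the first AAV8-Nfkbiz array and plus signs for that without the first luciferase array. The interval lies to the right of 0 only for Apcs, and Saa3 lies at 0.38 with all arrays and at -0.021 without the first AAV8-Nfkbiz array.

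Markers of other cells that make Saa3 and Lcn2 were read on the same arrays. Of 12 neutrophil markers 10 were on the array and 7 passed the intensity filter, and 0 of the 7 passed limma's test. Their geometric mean was 241, 140.3 and 159 on the AAV8-Nfkbiz arrays, against 165, 129.9 and 134 on the luciferase arrays. It was thus highest on the same array as Saa1, Saa2, Saa3 and Orm2. The geometric means of macrophage markers (3185) and of 7 lymphoid markers (139, with 112 on the second luciferase array as the next highest) were also highest there. Those of hepatocyte, stellate, endothelial, bile duct, fat and red blood cell markers were not. S100a9, a neutrophil and myeloid calcium-binding protein gene, read 960, 417 and 338 in AAV8-Nfkbiz livers, against 367, 274 and 233 in AAV8-luciferase livers. Csf3r, the receptor gene of the granulocyte growth factor G-CSF, read 254, 102 and 211 in AAV8-Nfkbiz livers, against 257, 184 and 315 in AAV8-luciferase livers. Of the 7 markers tested 6 had a positive difference, where 47.8% of all genes did. Among the 6, Ngp was at 0.0052 ± 0.31, and 1 marker, Csf3r, had a negative difference of -0.48 ± 0.35. Camp and Ltf, which encode granule proteins, and the chemokine receptor gene Cxcr2 lay below the filter, and no marker was listed at 0. Summed over the 10 markers, the intensity was 1546 to 3163 in the AAV8-Nfkbiz group and 1238 to 1724 in the luciferase group. All 12 macrophage markers passed the filter and 0 passed the test, while 8 were higher at an unadjusted p below 0.05, where 4.76% of all genes were, and their median difference was 0.59. Their geometric mean was 3185, 3121 and 2432 on the AAV8-Nfkbiz arrays, against 1745, 2254 and 1536 on the luciferase arrays. A positive difference was seen for 11 of the 12, where 47.8% of all genes had one. Summed over the markers, that was 52750 to 68316 in the AAV8-Nfkbiz group and 37110 to 48922 in the luciferase group, and no marker was listed at 0. Clec4f, a Kupffer cell lectin gene, read 4607, 6114 and 3652 in AAV8-Nfkbiz livers, against 1454, 3309 and 2317 in AAV8-luciferase livers (limma adjusted p = 0.254). Of the markers of stellate, endothelial, bile duct, fat, lymphoid and red blood cells that passed the filter, 0 were called. The part of these cells in the acute phase values was not tested.

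**Figure D3:**
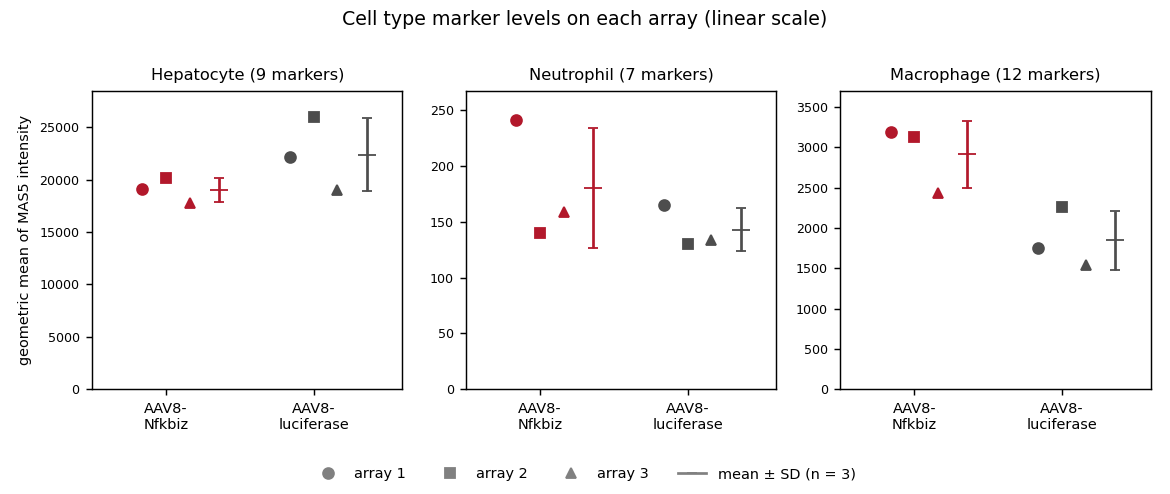
Geometric mean of MAS5 intensity (vertical axis, linear, from 0) of hepatocyte, neutrophil and macrophage markers on each array, AAV8-Nfkbiz at the left and AAV8-luciferase at the right of each panel, symbols as array 1, 2 and 3 with the mean ± SD. The neutrophil mean is highest on the first AAV8-Nfkbiz array, at 241, and the macrophage means do not overlap between the groups.

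Several ligands that drive the acute phase were dim, though Il18 read 795 to 1273 over the arrays and Ctf1 450 to 637. Of 17 cytokine genes in the list 14 were on the array and 10 passed the filter, and 0 of the 10 passed limma's test, where 0.03% of genes read by their brightest probe set were called higher and 0.0601% lower. At an unadjusted p below 0.05, 2 were higher and 0 lower, where 4.76% of all genes were higher and 6.65% lower. The median difference was 0.35, against -0.02 over all 13312 genes. Il1b, the gene of interleukin-1β, read 486, 310 and 291 in AAV8-Nfkbiz livers, against 299.8, 220.3 and 120 in AAV8-luciferase livers, and differed by 0.82 ± 0.34 (limma adjusted p = 0.432). The first AAV8-Nfkbiz array was again the highest, and the third AAV8-Nfkbiz array lay just below the first luciferase array. Il1a, the gene of interleukin-1α, read 258, 213 and 199 in AAV8-Nfkbiz livers, against 186, 146 and 104 in AAV8-luciferase livers, without overlap (0.65 ± 0.27, limma adjusted p = 0.436). Lif, an interleukin-6 family cytokine gene, differed by 1.02 ± 0.62 (limma adjusted p = 0.593). Il6 lay below the filter, at 61.0, 20.7 and 1.91 in AAV8-Nfkbiz livers, against 26.8, 2.95 and 15.1 in AAV8-luciferase livers, and so did Tnf.

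Receptors and transcription factors of the acute phase gave no call either. Of 14 receptor genes tested 0 passed, 6 had a positive difference, where 47.8% of all genes did, and the median was -0.13. That median was -0.0081 with the mean of all probe sets per gene and -0.053 without the second AAV8-Nfkbiz array. Il6ra, the interleukin-6 receptor alpha gene, read 1050, 996 and 781 in AAV8-Nfkbiz livers, against 1106, 1966 and 1776 in AAV8-luciferase livers (-0.75 ± 0.22, limma adjusted p = 0.291). The groups did not overlap, although the first luciferase array was close to the AAV8-Nfkbiz arrays. On a second Il6ra probe set they overlapped (-0.41 ± 0.22). Il1r1, the signalling receptor of interleukin-1, read 888, 710 and 912 in AAV8-Nfkbiz livers, against 1204, 1217 and 1466 in AAV8-luciferase livers (-0.63 ± 0.16, limma adjusted p = 0.238). Tnfrsf1b, a tumour necrosis factor receptor gene, differed by -0.66 ± 0.17 on its brightest probe set (limma adjusted p = 0.251) and by -0.07 ± 0.25 on the other, where the groups overlapped. Il6st, the gene of gp130, differed by 0.05 ± 0.16.

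Of 24 signalling and transcription factor genes tested 0 passed, 8 had a positive difference, where 47.8% of all genes did, and the median was -0.07, or 0.0005 without the second AAV8-Nfkbiz array. Cebpb, the C/EBPβ gene, read 7909, 7784 and 7567 in AAV8-Nfkbiz livers, against 9148, 12650 and 13953 in AAV8-luciferase livers. The AAV8-Nfkbiz arrays lay close together and all below the luciferase arrays, with a difference of -0.60 ± 0.16 (limma adjusted p = 0.254) and of -0.67 ± 0.15 on the second probe set. Cebpd, the C/EBPδ gene, read 686, 764 and 732 in AAV8-Nfkbiz livers, against 1254, 1237 and 863 in AAV8-luciferase livers, again without overlap (-0.60 ± 0.17, limma adjusted p = 0.283). On a dimmer Cebpd probe set the groups overlapped (0.55 ± 0.64). Nfkbia, the IκBα gene, differed by -0.42 ± 0.15 (limma adjusted p = 0.39), and its 5 probe sets all had negative differences, with groups that overlapped on 3 of them. The list holds Nfkbiz itself by 1417483_at, which ranks first of its 3 probe sets when log2 values are averaged, so the probe set 1448728_a_at, which was called, is not in the count of 0. These genes were named for their small p-values, and separate groups were seen for 9.69% of all probe sets in the lower and 7.03% in the higher direction.

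**Figure D4:**
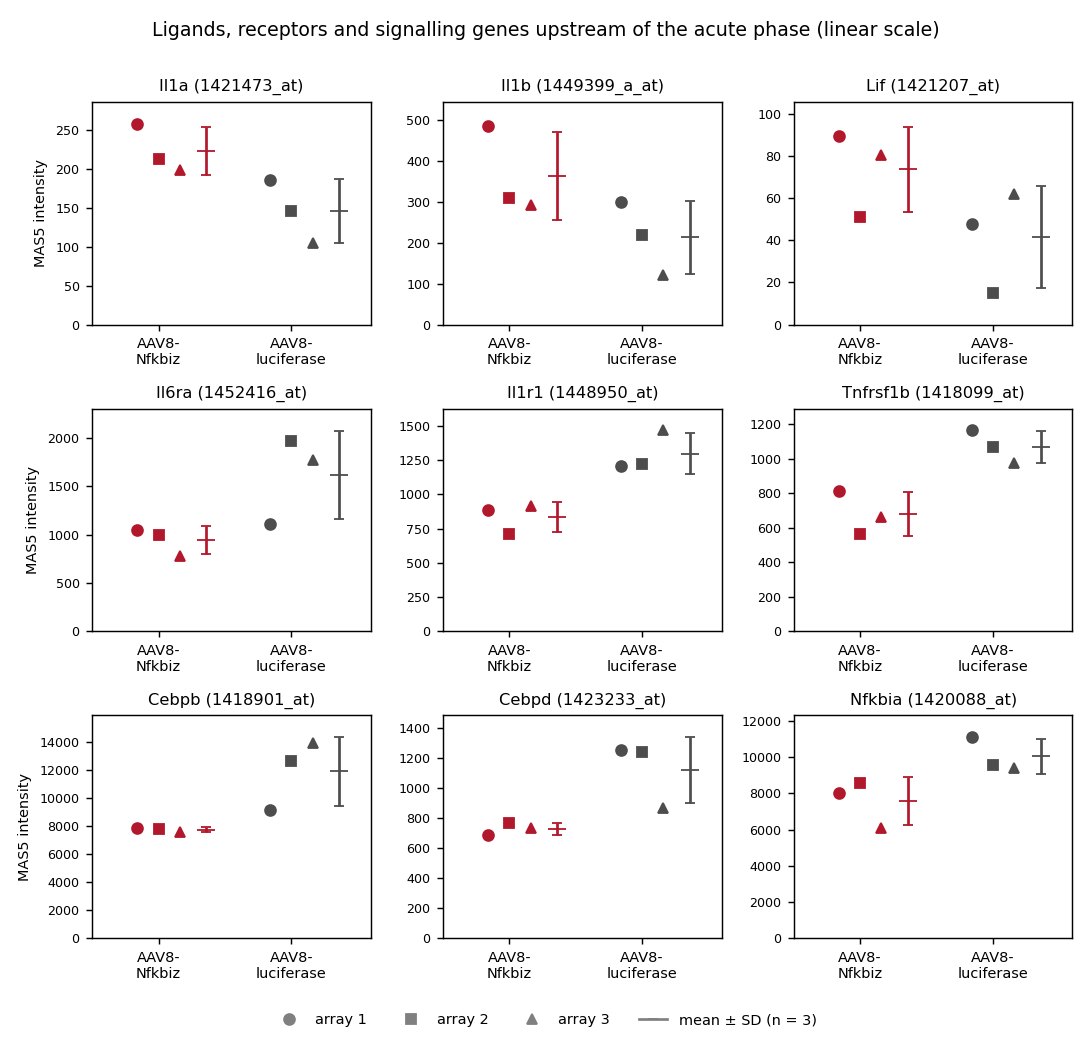
MAS5 intensity (vertical axis, linear, from 0) of the brightest probe set, by mean log2 intensity, of 3 ligand genes, 3 receptor genes and 3 signalling genes of the acute phase on each array, AAV8-Nfkbiz at the left and AAV8-luciferase at the right of each panel, symbols as array 1, 2 and 3 with the mean ± SD. Il6ra, Il1r1, Tnfrsf1b, Cebpb, Cebpd and Nfkbia lie lower on every AAV8-Nfkbiz array than on any luciferase array on the probe sets drawn, and Il1a lies higher; other probe sets of Il6ra, Tnfrsf1b, Cebpd and Nfkbia overlap.

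A list of other genes taken as positive acute phase genes was examined beside the members. It also holds genes that cells other than hepatocytes express, Chil3 among them. Of 39 genes in the list 30 were on the array under their own symbol and 29 passed the filter. None of the 29 passed limma's test, 23 had a positive difference, where 47.8% of all genes did, and the median was 0.12. That median was -0.04 with the first array of each group left out. Chil3, a chitinase-like gene of macrophages, read 344, 313 and 173 in AAV8-Nfkbiz livers, against 145, 131 and 116 in AAV8-luciferase livers (1.03 ± 0.29, limma adjusted p = 0.27). Mbl1, a mannose-binding lectin gene, read 10786, 10966 and 9428 in AAV8-Nfkbiz livers, against 7716, 7395 and 8422 in AAV8-luciferase livers (0.40 ± 0.12, limma adjusted p = 0.296). Mt1, a metallothionein gene, read 33023, 20924 and 25026 in AAV8-Nfkbiz livers, against 8006, 18543 and 17589 in AAV8-luciferase livers (0.91 ± 0.29, limma adjusted p = 0.339). For these 3 genes, named for the smallest p-values of the list, the groups did not overlap. Nor did they for Mbl2, a second mannose-binding lectin gene (0.35 ± 0.12, limma adjusted p = 0.371). Of all probe sets tested, 7.03% were separate in the higher direction. A second, dim Mt1 probe set went the opposite way, at -2.21 ± 0.95.

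Genes that fall in the acute phase did not mirror the members. Of 16 tested 0 passed, and 14 had a positive difference, where 47.8% of all genes did. The median was 0.06, or -0.07 after cyclic loess normalization. Cyp7a1, the rate-limiting enzyme of bile acid synthesis, read 8072, 8263 and 8500 in AAV8-Nfkbiz livers, against 1516, 2868 and 6679 in AAV8-luciferase livers (1.43 ± 0.41, limma adjusted p = 0.275). A second, dimmer Cyp7a1 probe set read 2700, 3342 and 2586 in AAV8-Nfkbiz livers, against 546, 1259 and 1240 in AAV8-luciferase livers. It differed by 1.59 ± 0.29 (limma adjusted p = 0.0912). With each gene read by 1 value, Cyp7a1 was the 1 gene of these lists to be called in any alternative. That was without the third luciferase array, at 1.99 ± 0.23 (limma adjusted p = 0.0177). Serpina7, the thyroxine-binding globulin gene, differed by 0.69 ± 0.23 (limma adjusted p = 0.35), and Serpina6, the corticosteroid-binding globulin gene, by -0.42 ± 0.15 (limma adjusted p = 0.394).

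Among 15 tested genes for receptors and binding partners of these proteins 0 passed, and 10 had a positive difference, where 47.8% of all genes did. The median was 0.32, or 0.14 without the third luciferase array. Lrp1, which takes up haem bound to haemopexin, read 4238, 2851 and 3972 in AAV8-Nfkbiz livers, against 5170, 4687 and 7798 in AAV8-luciferase livers (-0.66 ± 0.21, limma adjusted p = 0.334). The Fc gamma receptor genes Fcgr4 and Fcgr2b, whose products can bind pentraxins, differed by 0.43 ± 0.16 and 0.62 ± 0.23, with limma adjusted p-values of 0.396 and 0.399. Of 8 other lipocalin genes tested 0 passed, and Apom, the apolipoprotein M gene, had the smallest p (0.31 ± 0.15, limma adjusted p = 0.5).

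Genes whose intensities followed the members most closely were ranked by Pearson correlation of log2 intensity over the 6 arrays among 13302 other genes. The arrays share their scaling, and with 6 points many genes reach high values by this measure. For Saa1 they were Fam162b, Cfc1 and Wnt6 (0.98, 0.98 and 0.97). For Saa3 they were Astl, Nat8l and Fem1a (0.99, 0.97 and 0.97), for Lcn2 Prr12, Vmn1r44 and Birc3 (0.99, 0.99 and 0.98), and for Orm1 Cisd1, Igf1 and Bnip3 (each 0.98). Correlations above 0.95 were reached by 22 genes for Saa1, 12 for Saa3, 33 for Lcn2 and 41 for Orm1. No acute phase gene of the lists was among the 3 closest of Saa1, Saa3 or Lcn2, and Igf1, from the list of genes that fall in the acute phase, was among those of Orm1.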

How the data were processed

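The deposited table holds MAS5 signal intensities on a linear scale, 1 column per liver. The authors used MAS5 per the submitters' processing notes, and its version and target are not given in the sources used; the mean of the middle 96% of intensities was 495.4 to 496.5 on every array. Probe sets were named through the platform annotation (34945 with 1 gene, 932 with several, 9160 not listed and unnamed here). Intensities were log2-transformed without pseudocount and fitted with limma 3.58.1 (lmFit, eBayes with intensity trend, R 4.3.3), two-sided, with Benjamini-Hochberg adjustment over 27022 probe sets; the lowest 40% by mean (intensity under 47.4) were left out. The fit was tested on simulated data, where it called 19% of probe sets changed by 1 on the log2 scale and 61.8% of those changed by 2. A probe set that was not called may thus have changed. For a list, each gene's brightest probe set was read from the same fit. Named genes were all members, called list genes, and otherwise the up to 3 list genes with the smallest p; others, Il6, Tnf, Il6st, Crp and the neutrophil granule genes among them, were chosen after their values were seen. Members and lists were chosen with earlier results of these data known. Promoters were aligned with Biopython 1.88, and figures drawn with matplotlib 3.10.9. Alternatives were 3 normalizations, 2 variance priors, array weights, 2 filters, a pseudocount of 16, a replicate block, 2 summaries per gene and leaving out each array. For arrays, their number limits the precision.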

Additional observations from a re-analysis of the deposited data

How the results depend on the processing

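In none of 18 other settings was any of the 12 acute phase probe sets called by limma, the smallest adjusted p being 0.21, for Apcs. Of the 12, Saa1 (both probe sets), Saa2, Saa4 (both), Orm1, Orm2 and Apcs kept the sign of their difference in each of these that was run for them, though without the first AAV8-Nfkbiz array Saa1 was 0.13 and 0.11, Saa2 0.17 and Orm2 0.059. Hp turned to -0.026 after quantile and -0.073 after cyclic loess normalization, and Lcn2 to 0.021 after median centring and 0.13 with array weights. Leaving out 1 array gave -0.021 to 0.67 for Saa3, -0.31 to 0.10 for Orm3 and -0.17 to 0.20 for Lcn2, which was 0.11 without the third luciferase array. With the first array of each group left out, an alternative chosen after seeing the data, Saa1 was -0.018 and -0.051, Saa2 -0.12, Saa3 -0.13, Orm2 -0.064 and Hp -0.0094; 6 probe sets were then called overall. Over all features, 19 probe sets were called with all arrays, 29 after quantile normalization, 0 without the variance trend (probe sets at an unadjusted p below 0.05 numbered 2429), 77 with array weights, 46 with the lowest 60% left out, and 30 genes with the brightest probe set per gene. Leaving out 1 array gave 8 (without the second AAV8-Nfkbiz array) to 33 (without the third luciferase array), with 11 without the first AAV8-Nfkbiz array. Called genes of the acute phase, pathway and family lists, cell markers not counted, numbered 0 in every case but the third luciferase array left out, with 1. The causes were not tested. Samples with the same replicate number did not deviate together (correlations of -0.03, 0.07 and 0.01, against -0.10 to 0.09 for unlike numbers). Such low correlations cannot exclude shared handling of samples, and the labels say nothing of pairs. With the replicate block 28 probe sets and 0 members were called, the smallest limma adjusted p of a member being 0.344, for Apcs.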
